A study of Mus musculus with 31 samples.

Results

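The replication-dependent histone gene clusters of the mouse genome were examined in RNA from Srap1 knockout (KO) and wild-type embryonic stem (ES) cells. The members are RNA loci chosen by position alone. They comprise each locus that overlapped chr13:21800000-22140000 (cluster A), chr13:23615000-23865000 (cluster B) or chr3:96040000-96085000 (cluster C), on build mm9. These intervals held 125 of the 179682 loci listed over 5 distinct tables, 4 from wild-type cells and 1 from Srap1 KO cells. The table of the second Srap1 KO library was identical to the first and was counted once, so the knockout is 1 sample.

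Histones package DNA into nucleosomes, in which H2A, H2B, H3 and H4 form the core and the linker histone H1 binds where DNA enters and leaves. The replication-dependent genes for them lie close together, have no introns, and are transcribed mainly while DNA is copied. Their mRNAs are short and end in a stem-loop in place of a poly(A) tail, so that preparations selecting poly(A) lose most of them, whereas removal of ribosomal RNA keeps them. ES cells divide fast and spend much of their cycle copying DNA.

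Srap1, also called Hmces, is a protein with a SRAP domain that acts on DNA. Wild-type cells (wild type at Srap1) and cells lacking Srap1 were co-derived, on the 129SVxC57/BL6 background. Both were grown with serum, leukemia inhibitory factor, the inhibitor pair known as 2i (against GSK3β and Mek 1/2) and L-ascorbic acid. Total RNA was depleted of ribosomal RNA and made into stranded libraries, and the labels name no separate cultures or clones. At the 125 to 145 loci per pair of wild-type tables that had equal ends, the tables differed by about the sampling noise of their reads. These are few of the 8882 to 9295 loci per wild-type table and were picked for equal ends. Over the 3715 regions present in the 4 tables, the highest FPKM was a median of 1.82 times the lowest. Whether the 4 tables are from separate cultures is therefore not known, and region A1 (chr13:21845263-21845724) differed between them by more than sampling noise. Their values are given singly or as a range, with no SD and no p-value. No gene is given for any locus, so the identity of the cells could not be checked on markers and a locus is named here by position.

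FPKM, the deposited unit, scales fragments by a length in kilobases and by each 1000000 fragments of the library. The length used is not given, and the values do not follow the listed width alone. Each value carries an interval, and the width of that interval gives an implied number of fragments. This number was 895779 to 926460 per wild-type table and 10804715 in that of the knockout. A single chromosome 17 locus held 61.4% to 62.2% of it in the wild type and 3.51% in the knockout, which left 338453 to 355077 fragments elsewhere in the wild type and 10425958 in the knockout. Over the genome the knockout table listed shorter and weaker loci, with a median of 486 bases and 4.51 FPKM, against 1977 to 2040 bases and 16.0 to 16.8 FPKM in the wild type. In the knockout, the locus chr13:21939833-21939914 had 943 FPKM from 14.0 implied fragments over 81 bases. The locus chr13:21871228-21872670 had 187 FPKM from 5202 over 1442 bases. The shorter one thus had fewer fragments per listed base and a higher FPKM, so FPKM of very short and of wide loci are not directly comparable. How far depth and library make-up set the differences given here was not tested.

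The genes themselves can be shown by sequence, although not joined to the loci. The RefSeq gene table used for names is of build GRCm38.p6, whose positions cannot be set beside those of the mm9 loci. It listed 65 histone genes on chromosomes 13 and 3, of which 2 are pseudogenes. Chromosome 13 held 6 H1, 15 H2A, 14 H2B, 9 H3 and 11 H4 genes, and chromosome 3 held 4 H2A, 2 H2B, 3 H3 and 1 H4 gene. A start-site window of 300 bases was at hand for 58 of the 65, in 59 entries. In 9 places an H2A and an H2B gene pointed away from each other with starts within 300 bases, among them H2ac8 with H2bc8 and H2ac12 with H2bc12.

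The following stretches are the 130 bases before the start of the 5 H1 genes with names H1f1 to H1f5 and of H3c2, taken from RefSeq on GRCm38.p6 and written 5′ to 3′ on the gene's strand. They are shown because 4 of the 5 linker histone genes share letters that the core histone gene H3c2 lacks here. Capitals mark AAACACA as well as CCAAT and TATAAA, which do not overlap one another in these stretches.
H1f2 (chr13:23738677-23738806, + strand): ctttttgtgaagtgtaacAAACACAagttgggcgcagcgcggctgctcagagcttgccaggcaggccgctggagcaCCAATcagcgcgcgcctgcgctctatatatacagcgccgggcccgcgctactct
H1f3 (chr13:23554902-23555031, + strand): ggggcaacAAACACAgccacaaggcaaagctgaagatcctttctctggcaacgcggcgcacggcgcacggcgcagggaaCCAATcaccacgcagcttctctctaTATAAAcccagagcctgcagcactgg
H1f4 (chr13:23622559-23622688, - strand): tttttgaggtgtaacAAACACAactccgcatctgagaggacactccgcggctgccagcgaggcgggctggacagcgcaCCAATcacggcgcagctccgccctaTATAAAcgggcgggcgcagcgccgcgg
H1f5 (chr13:21780626-21780755, - strand): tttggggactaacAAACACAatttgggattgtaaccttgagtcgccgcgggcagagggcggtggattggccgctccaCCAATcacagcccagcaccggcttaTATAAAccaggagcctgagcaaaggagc
H1f1 (chr13:23763538-23763667, + strand): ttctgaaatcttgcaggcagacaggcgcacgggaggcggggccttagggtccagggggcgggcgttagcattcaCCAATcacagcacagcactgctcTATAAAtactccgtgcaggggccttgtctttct
H3c2 (chr13:23752215-23752344, + strand): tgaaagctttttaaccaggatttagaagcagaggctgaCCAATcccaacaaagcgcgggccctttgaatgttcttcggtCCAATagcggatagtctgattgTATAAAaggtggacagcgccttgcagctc

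Counted back from the start, AAACACA began at -122 to -112 in H1f2, H1f3, H1f4 and H1f5 and was not found in these letters of H1f1 or H3c2. CCAAT began at -56 to -51 in the 5 H1 genes. Searched on both strands of the whole windows, AAACACA was in 5 of 6 H1 entries, 2 of 17 H2A, 2 of 15 H2B, and 0 of the 10 H3 and 11 H4 entries, against 7.18% of all 32851 RefSeq windows of the same length. CCAAT, the letters bound by the factor NF-Y, was in 51 of 59 histone entries (86.4%) against 37.4% of all. Its 8 absences were all among the 11 H4 entries, of which 3 held it. TATAAA, a form of the TATA box, was in 34 of 59 (57.6%) against 13.6%. A match is a stretch of letters and no measurement of binding.

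In the wild-type tables the clusters held few, short and strong loci. The 4 tables listed 12, 14, 13 and 12 loci in the 3 clusters, or at least 1.89 per 100 kb, against 0.346 to 0.362 over the genome. Their median width was 560, 556, 453 and 465 bases. Their median level was 155, 143, 156 and 133 FPKM. Loci of at least 100 FPKM made up 66.7% to 71.4% of the cluster loci and 3.27% to 3.46% of all loci. The shares are not matched for width, and narrow loci were often strong elsewhere too. Merged over the 4 tables, 221 regions under 700 bases had a locus in each, and 170 of them averaged at least 50 FPKM. In the clusters this held for 6 of 6. Because the loci were short, they covered 1.09% to 1.35% of the cluster bases, less than the 2.43% to 2.53% covered genome-wide.

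The knockout table held 74 loci in the same intervals, or 11.7 per 100 kb against 5.57 over the genome. They were weaker, with a median of 5.76 FPKM, and their median width was 443 bases. Of them, 13.5% (10 loci) reached 100 FPKM, compared with 3.70% of all knockout loci. Of these 10, 5 lay in cluster A. All of those but chr13:21871228-21872670 were only 81 to 141 bases wide, with 11.9 to 25.8 implied fragments. Loci under 5 FPKM made up 45.9%, compared with 53.6% over the genome. They covered 7.01% of the cluster bases, below the 10.3% covered genome-wide.

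**Figure D1:**
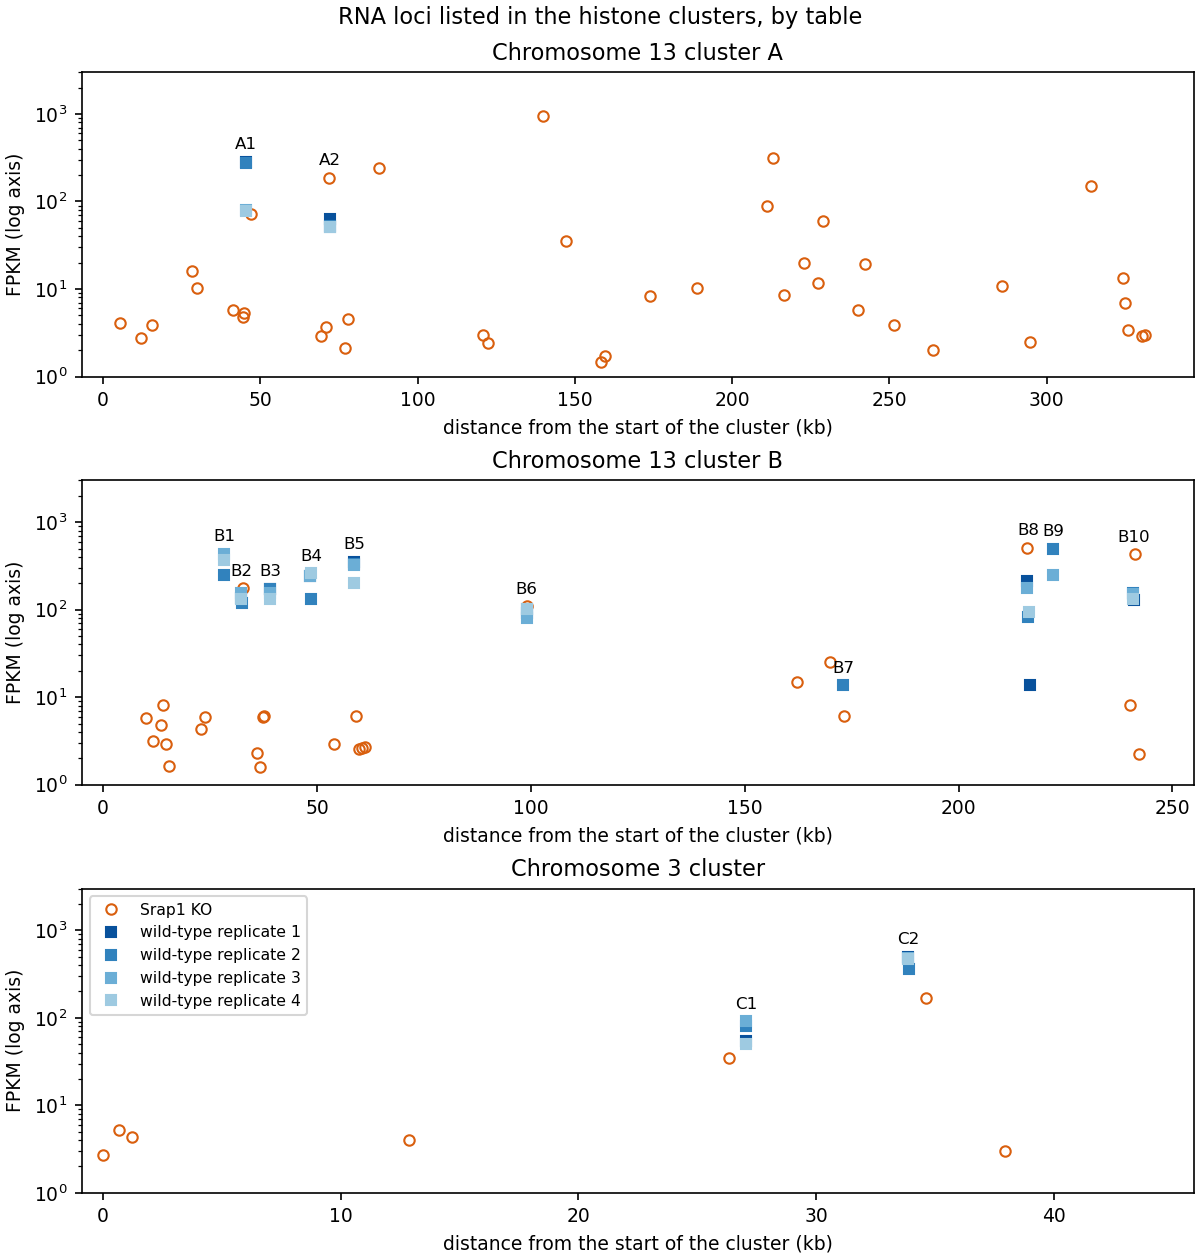
RNA loci in the 3 clusters, plotted by distance from the start of the cluster (kb) and by FPKM on a log axis, with a blue square for each wild-type locus and an open orange circle for each Srap1 KO locus. Wild-type squares sit in 14 labelled regions, mostly near or above 50 FPKM, while most of the 74 knockout circles lie under 20 FPKM.

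Cluster A is the longest interval and held the fewest wild-type loci for its size. Each wild-type table listed 2 loci there, covering 1178, 1233, 1212 and 1216 bases, or 0.346% to 0.363% of the interval. The knockout table listed 41 loci covering 21713 bases, or 6.39%. Summed FPKM was 349, 326, 130 and 128 in the wild type and 2306 in the knockout. Most of the knockout sum lay in very short loci of few fragments, and without loci under 300 bases it was 310.

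Cluster B carried most of the wild-type histone RNA. The wild-type tables listed 8, 10, 9 and 8 loci, covering 4946, 6464, 4928 and 5292 bases (1.97% to 2.59%), and the knockout listed 26 covering 16426 bases (6.57%). Summed FPKM was 1357, 1858, 1968 and 1430 in the wild type and 1350 in the knockout. The knockout sum was thus just below the lowest wild-type sum, although it had more loci.

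Cluster C, on chromosome 3, is the smallest. The wild-type tables listed 2 loci each, covering 782, 859, 818 and 826 bases (1.74% to 1.91%), and the knockout listed 7 covering 6370 bases (14.2%). Summed FPKM was 554, 445, 578 and 521 in the wild type and 223 in the knockout, which lies below the 4 wild-type values.

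On a second scale, cluster C was closer between the genotypes and cluster B further apart. It differs from FPKM in 2 ways, having no division by length and leaving the chromosome 17 locus out of the total. That locus held 61.4% to 62.2% of the wild-type fragments and 3.51% in the knockout. Leaving it out therefore lowers knockout values relative to wild-type ones. The parts of the 2 changes were not separated. Implied fragments for each 1000000 outside the chromosome 17 locus, here called FPM, were 4447, 5022, 4760 and 4190 over the 3 clusters in the wild type and 3644 in the knockout. Cluster A had 572, 585, 303 and 286 in the wild type and 609 in the knockout, just above replicates 1 and 2 and far above replicates 3 and 4, which are low at region A1. Cluster B had 2989, 3618, 3544 and 3088 against 2233, further below the lowest wild-type value than in summed FPKM. Cluster C had 886, 820, 913 and 816 against 801, so the gap seen in summed FPKM was nearly closed. The wild-type totals include loci at regions A1, B1, B3, B4, B5 and B9, described below, where the knockout listed none. Lower histone RNA in the knockout is therefore not established by these totals. Even if it were, fewer cells copying DNA and less histone RNA per cell cannot be told apart in bulk RNA.

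The wild-type loci were merged over the 4 tables into 14 regions, numbered along each cluster. A locus from each wild-type table was present in 11 of them, and 7 of these also had a locus in the knockout. The level of a region is the highest FPKM among its loci, and ratios are on the log2(FPKM + 1) scale, which understates changes of low loci. A region was called where the knockout lay outside the 4 wild-type values and the log2 ratio was at least 1 in size. By that rule 3 of the 7 were called higher and 1 lower, against 36.4% and 9.79% of the 3461 regions measured in all tables genome-wide. Genome-wide these were 1259 higher and 339 lower. With the median of all ratios set to 0 they became 925 and 661, and by implied fragments scaled to depth they became 388 and 756, so the balance depends on the scaling. Among the 364 of these regions under 1500 bases, the width class of the 7, the shares were 22.3% higher and 22% lower. Knockout values outside the wild-type range were found in 7 of 7 histone regions and in 73.3% of all. The median log2 ratio was 0.36 over the 7 (from -1.43 to 1.82), 0.49 over all regions and -0.0022 over those under 1500 bases. Relative to the median of all regions, A2 stood at 1.27, B8 at 1.33, B10 at 1.11, C1 at -1.47 and C2 at -1.92.

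Region A2 (chr13:21871705-21872498) was the only one of the 2 in cluster A with a knockout locus. It measured 62.3, 53.1, 50.6 and 51.0 FPKM in the wild type and 187 FPKM in the knockout (deposited interval 182 to 192). The wild-type values lie close together and the knockout is above them, by 1.77 on the log2 scale or 3.45-fold. In FPM it was also higher, with a wild-type mean of 183 against 499. The knockout locus began 477 bases before the region and ended 172 after it, spanning 1442 bases.

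Region B10 (chr13:23855546-23856370) behaved alike on both scales. It measured 128, 155, 149 and 132 FPKM in the wild type and 432 in the knockout (424 to 441), a log2 ratio of 1.61 or 3.06-fold. The wild-type mean was 455 FPM and the knockout value 1011. With 10545 implied fragments it was the most deeply read histone locus of the knockout table, and it reached 447 bases past the wild-type region.

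Region B8 (chr13:23830678-23832101) was called higher in FPKM but not in FPM. It measured 214, 83.2, 179 and 94.8 FPKM in the wild type and 507 in the knockout (492 to 522), a log2 ratio of 1.82. The wild-type values fall in pairs that follow the width of the locus, which was 703 bases in replicates 1 and 3, and 1331 and 1395 in replicates 2 and 4. In replicate 1 a separate locus of 653 bases and 13.6 FPKM lay beside the stronger one. The knockout locus was narrower still, at 598 bases. In FPM the wild-type mean was 606 and the knockout 432, so the direction turned over.

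Regions B2 and B6 differed little in FPKM. Region B2 (chr13:23646914-23647818) measured 137, 118, 156 and 133 FPKM in the wild type and 175 in the knockout (171 to 180). Region B6 (chr13:23713660-23714426) measured 92.8, 102, 79.7 and 102 FPKM against 110 (104 to 116). Their log2 ratios of 0.36 and 0.22 are below the median of all regions, and with that median set to 0 they became -0.13 and -0.27. In FPM B2 was 482 in the wild-type mean and 580 in the knockout, while B6 was 316 and 147, the reverse of its FPKM.

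The chromosome 3 regions were lower in FPKM. Region C2 (chr3:96073629-96074175) was the strongest wild-type region present in all 5 tables, with 500, 366, 486 and 470 FPKM in the wild type and 169 in the knockout (165 to 173). The knockout is below the 4 values, with a log2 ratio of -1.43, or 0.371 of the wild type. In FPM the gap was smaller, 795 against 670. Region C1 (chr3:96066890-96067251) measured 53.9, 79.6, 91.7 and 50.3 FPKM against 34.5 (32.5 to 36.4), a ratio of -0.98 that missed the threshold. In FPM it was higher in the knockout, 63.5 against 118.

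**Figure D2:**
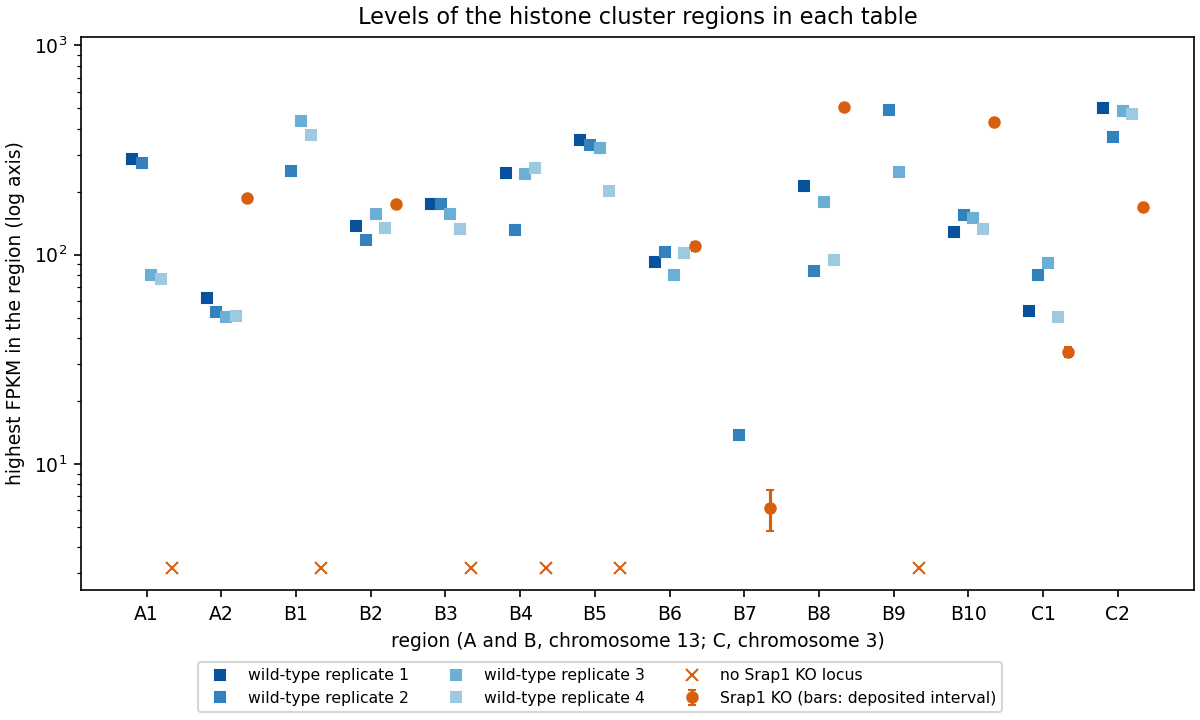
Highest FPKM in each of the 14 histone regions, on a log axis, with blue squares for the 4 wild-type tables, orange circles with the deposited interval for Srap1 KO, and a cross at the foot where the knockout had no locus. On this FPKM scale the knockout circle stands above the wild-type squares at A2, B2, B6, B8 and B10 and below them at B7, C1 and C2. In FPM, B6, B8 and C1 turn over, and with the median of all regions set to 0, B2 and B6 turn over; crosses mark A1, B1, B3, B4, B5 and B9.

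**Figure D3:**
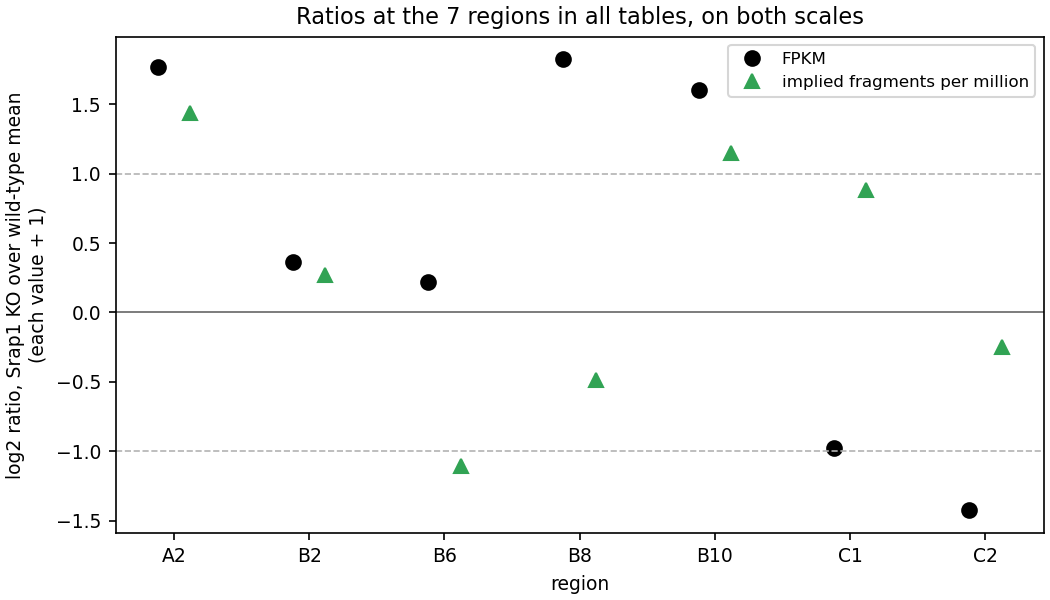
Log2 ratio of knockout over wild type at the 7 histone regions present in all tables, by FPKM (circles) and by implied fragments, FPM (triangles), each with 1 added; dashed lines mark the threshold of 1. A2, B2 and B10 are above 0 and C2 is below 0 on both scales, while B6 and B8 drop below 0 and C1 rises above 0 in FPM.

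FPKM divides by a length, and the extents of the loci differed between tables. At C2 the knockout locus ran 1493 bases past the end of the wild-type region and was 2079 bases wide, against a region of 546 bases. At C1 it began 1422 bases before the region and was 1778 wide, against 361. At B2 it ran 873 bases past the end. At least 400 bases beyond the region were reached at 5 of the 7 histone regions (A2, B2, B10, C1 and C2), against 55.2% of all regions under 1500 bases present in all tables. That distance was chosen after the values were seen. At B8 the knockout locus lay inside the region. At B6 it began 64 bases before the region and was 817 bases wide, against 766. Extents were thus nearly equal at B6, where the 2 scales still differed in direction. FPM also leaves the chromosome 17 locus out of the total, and the part of each change was not tested.

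**Figure D4:**
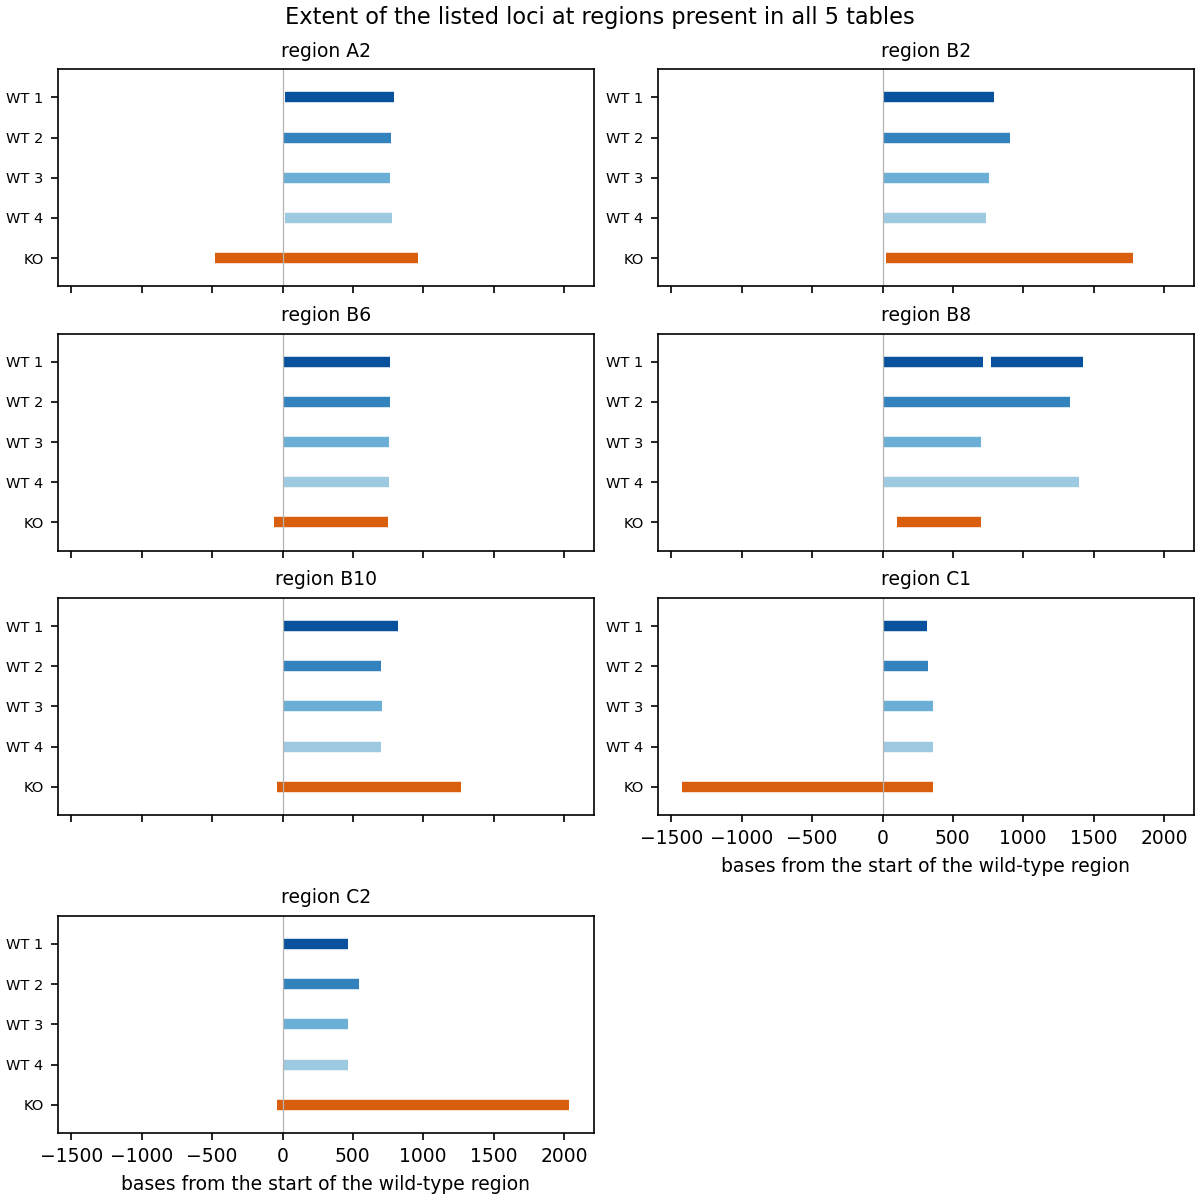
Extent of the locus in each table at the 7 histone regions present in all tables, in bases from the start of the region. The knockout bars (orange) extend past the wild-type bars (blue) by 1493 bases at C2, by 1422 before C1 and by 873 after B2, and lie within the region at B8.

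A group of strong wild-type regions had no knockout locus at all. Of the 11 regions in all wild-type tables, 4 (A1, B3, B4 and B5) overlapped none, against 6.84% of the 3715 such regions genome-wide. All 4 were under 700 bases. In that width class 4 of 6 histone regions and 51.6% of all lacked a knockout locus, and with at least 50 FPKM in addition 4 of 6 and 52.9%. From 700 to 1500 bases it was 0 of 5 and 20.7%. Read against narrow regions elsewhere, the histone share is therefore near the background. With regions in at least 2 wild-type tables it was 6 of 13, adding B1 and B9, against 6.21%.

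Region A1 (chr13:21845263-21845724) measured 286, 273, 79.9 and 76.9 FPKM in the wild type. Replicates 1 and 2 stand apart from 3 and 4, with deposited intervals of 234 to 339 and 228 to 319 against 56.1 to 104 and 53.4 to 100 that do not meet. Widths were nearly equal, from 403 to 459 bases, and fragments split the same way, at 120, 144, 45.0 and 42.8. In the knockout the nearest loci lay 260 bases to the left, at 5.28 FPKM, and 1099 bases to the right, at 71.7 FPKM.

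The 3 in cluster B lie within a stretch of about 20 kb. Region B3 (chr13:23653782-23654237) measured 174, 174, 156 and 133 FPKM, and its nearest knockout locus was 816 bases away with 6.17 FPKM. Region B4 (chr13:23663268-23663950) measured 245, 131, 242 and 259 FPKM, with 4417 bases to the nearest knockout locus, of 2.95 FPKM. Region B5 (chr13:23673437-23673903) measured 352, 335, 322 and 202 FPKM, and a knockout locus of 6.12 FPKM lay 57 bases beyond it. These regions were as strong in the wild type as those that did have a knockout locus, and the nearest knockout loci named here did not exceed 6.17 FPKM.

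Regions B1 and B9 were missing from some wild-type tables too. Region B1 (chr13:23643169-23643525) was listed at 252, 437 and 373 FPKM in replicates 2, 3 and 4 and not in replicate 1. Region B9 (chr13:23836871-23837295) was listed at 494 and 247 FPKM in replicates 2 and 3. Presence in a table thus varied among wild-type libraries even at levels over 200 FPKM. Region B7 (chr13:23787821-23788390) was weak, listed at 13.7 FPKM in replicate 2 and at 6.14 in the knockout.

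Whether reads can be placed uniquely at these regions was looked at in a DNA library from Srap1 KO cells, the control precipitation with IgG in place of an antibody to a modified cytosine (IgG DIP). Core histone genes of 1 family can be closely alike in sequence, although gene sequences were not compared here. A low mapping quality is read here as a sign that a read may fit several copies. Which tool and settings gave the scores is not stated, and this reading was not tested. At the 4 regions in all wild-type tables without a knockout locus, 9 of 11 DNA reads had a mapping quality under 30 (81.8%, exact 95% interval 48.2% to 97.7%). At the 7 with one it was 1 of 28 (3.57%, 0.0904% to 18.3%). The intervals do not meet, but they cover counting error only and the reads are few.

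By region, 2 of 3 reads at A1, 1 of 1 at B3, 3 of 4 at B4 and 3 of 3 at B5 were of low quality, against 1 of 8 at B8 and 0 of 5 at A2 and B2. B9 did not share this, with 0 of 2, and B1 and B6 had no reads. Over regions of any width in all wild-type tables, the set from which the histone regions come, the shares were 34.2% without a knockout locus and 10.3% with one. Over those under 700 bases they were 76.7% (296 of 386 reads, 72.1% to 80.8%) and 40.1% (282 of 704, 36.4% to 43.8%). How far low mapping quality goes with a missing locus thus differs by width. The part of low mapping quality in the missing knockout loci was not tested, nor was how the authors' RNA alignment placed reads that fit several copies. Levels at any regions with closely alike copies are therefore uncertain in both genotypes.

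**Figure D5:**
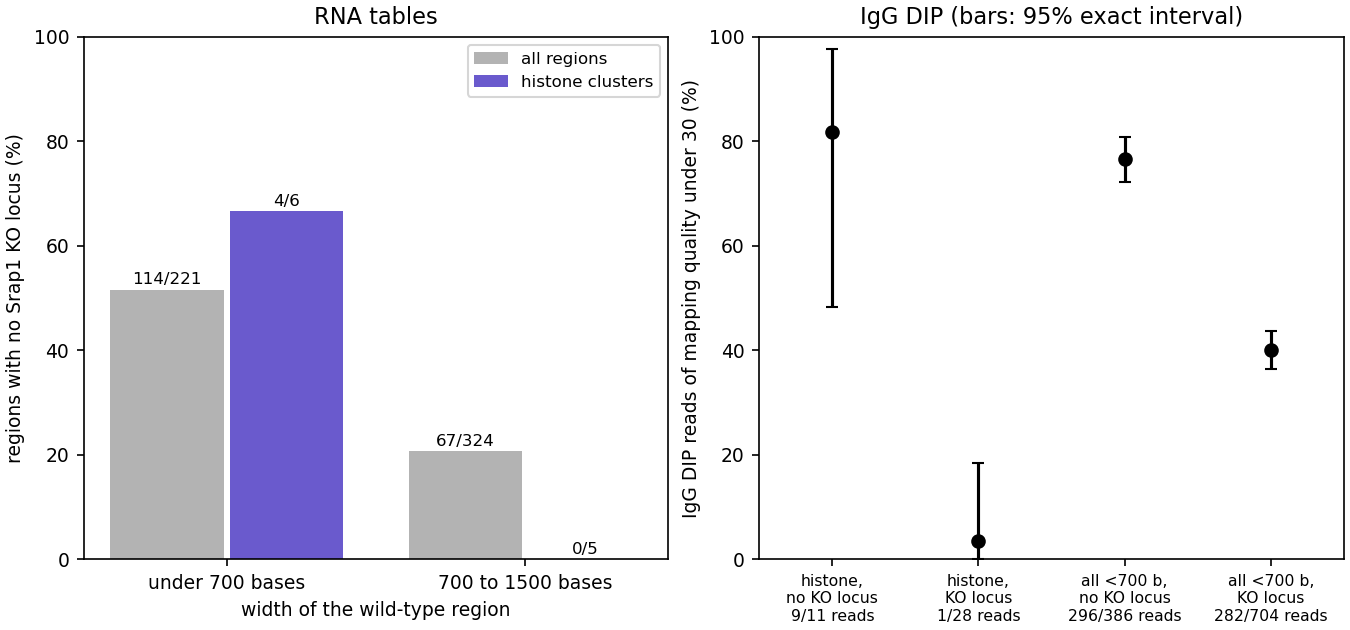
Left, share of wild-type regions with no Srap1 KO locus (percent) by width, for all regions (gray) and histone regions (violet), with 4 of 6 histone regions under 700 bases and 0 of 5 from 700 to 1500. Right, share of IgG DIP reads with a mapping quality under 30 (percent, bars for exact 95% intervals) at regions without and with a knockout locus, which is 81.8% and 3.57% for histone regions, and 76.7% and 40.1% for all narrow regions.

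Over whole clusters, the share of low-quality reads in the same library stood above the flanks in cluster B alone. Reads under a quality of 30 made up 23.2% (21.0% to 25.6%) of 1342 reads in cluster A and 27.8% (26.0% to 29.7%) in its flanks, and 19.1% (13.7% to 25.6%) of 183 reads in cluster C and 20% (16.3% to 24.1%) in its flanks. In cluster B the share was 19.2% (16.7% to 21.9%) of 908 reads, against 9.78% (8.54% to 11.1%) in its flanks, and the intervals do not meet. Over all reads of the library the share was 20.7%, so cluster B stood near it and the flanks of cluster B stood low. Cluster B holds 3 of the 4 regions in all wild-type tables without a knockout locus. Those regions, B3, B4 and B5, held only 1, 3 and 3 of the 174 low-quality reads of the cluster. Reads with a mapping quality of at least 30 stood at 3.03, 2.94 and 3.29 per kb in clusters A, B and C, and at 2.34, 3.76 and 3.87 in their flanks. A control ChIP with IgG listed 1730 windows, of which 0 fell in the clusters as given here, which allows a share of up to 0.173%. The build of those windows could not be settled, and for clusters that span only 635000 bases a count of 0 carries little information.

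Most knockout loci in the clusters lay away from the wild-type regions and held little RNA. Of 74 knockout loci, 66 overlapped no wild-type region, against 67.4% of the 143073 knockout loci genome-wide. They divided into 40 of 41 in cluster A, 21 of 26 in B and 5 of 7 in C. Their median was 4.84 FPKM, 57 of the 66 were under 20 FPKM, and together they held 4.90% of the clusters' implied fragments in the knockout. The 8 loci that overlapped a wild-type region held 95.1%. By cluster the overlapping loci held 81.9% in A, 97.5% in B and 98.3% in C.

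The highest FPKM of these 66 belonged to very short loci with few fragments. In cluster A they were chr13:21939833-21939914 (943 FPKM over 81 bases, interval 439 to 1448), chr13:22012891-22012994 (318 FPKM, 103 bases) and chr13:21887711-21887815 (244 FPKM, 104 bases). These rest on 14.0, 14.7 and 11.9 implied fragments, where region A2 rests on 5202. In cluster B the highest was chr13:23784964-23785168 with 24.9 FPKM, followed by chr13:23777115-23777467 with 14.8 and chr13:23854912-23855170 with 8.16. In cluster C they were 5.25, 4.35 and 4.02 FPKM, at chr3:96040521-96040858, chr3:96040921-96041520 and chr3:96052666-96053045. Outside the wild-type regions, then, the listed knockout loci of clusters B and C stayed under 25 FPKM. RNA that was not assembled into a locus has no value here.

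The widest knockout locus of the clusters was chr13:22038693-22041647 in cluster A, with 2954 bases at 5.73 FPKM. In B and C the widest were those at regions B2 and C2. No wild-type locus of the clusters was wider than 1395 bases or narrower than 315.

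Levels at the histone regions varied among the wild-type tables by less, at the median, than those of all regions. The highest of the 4 values was a median of 1.37 times the lowest over the 11 histone regions, and 1.82 times over all 3715 regions present in the 4 tables. A ratio of at least 2 was found at 2 of 11 histone regions, A1 (3.73) and B8 (2.57), and at 39.9% of all. By fragments, A1 (3.36) and C1 (2.22, from 1.82 by FPKM) reached 2, and B8 was at 1.23. The other 8 histone regions were at 1.07 to 1.32 by fragments, and the median over all regions was 1.80. All regions were not matched to the histone regions in width or level, and how far this sets the gap was not tested.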

How the data were processed

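RNA libraries (4 wild-type, 1 distinct Srap1 KO table of 2 deposited) and 2 IgG control libraries were used. The authors' deposited RNA tables give FPKM with lower and upper bounds per assembled locus, with columns named, per the file headers, as Cufflinks names those of its gene tables. Cufflinks 2.2.1.0, Bowtie 0.12.8, Trim Galore 0.3.5 and MACS2 2.1.1 are listed with build mm9, without order or settings, per the submitters' processing notes. Loci were assembled separately in each library, so their ends and names differ between tables. The deposited IgG DIP file lists aligned reads with a mapping quality score, and the IgG ChIP file lists the authors' windows without a score.

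Samples were grouped by title. Implied fragments were computed from the gap between FPKM and its upper bound, read as 2 Poisson standard deviations, which is an approximation. Wild-type loci were merged where they overlapped in the 4 tables, and a knockout locus counted with 1 base of overlap. Ratios used a pseudocount of 1, no filter on low values and no scaling between tables. The wild-type tables were compared at 125 to 145 loci per pair with equal ends (within 5 bases) and at least 10 fragments, where the median difference was 0.848 to 1.20 times that of sampling noise. No test was run, since the knockout has 1 sample. Members and lists were chosen with earlier results of these data known. Named regions were those in all 5 tables, wild-type regions with no knockout locus, the 3 knockout loci of highest FPKM per cluster that overlap none, and the widest loci; B1, B7 and B9 complete the 14 regions. A comparison of histone proteins had been planned and was not made here. Python 3.11.15, NumPy 2.4.6, pandas 2.3.3 and SciPy 1.17.1 were used. Alternatives were the pseudocount, the scaling, the level and overlap rules, filters and leaving out each wild-type table.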

Additional observations from a re-analysis of the deposited data

Results flagged for a closer look

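Region B4 (chr13:23663268-23663950) measured 131 FPKM in the table of wild-type replicate 2, whereas the remaining 3 lay between 242 and 259 FPKM, and replicate 2 thus stood far from the rest. Its locus was 682 bases wide there and 435 to 446 bases elsewhere, while the implied fragments were 130, 135, 128 and 143. It was the 1 value that stood apart among 23 quantities looked at, and chance gives about 1 in 20.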

How the results depend on the processing

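A2 and B10 kept their direction and stayed past the threshold under each alternative that gave them a value (log2 ratio 1.27 to 1.84 and 1.11 to 1.65). With the median of all regions set to 0, B2 became -0.13, B6 -0.27 and C1 -1.47, and 2 histone regions were called lower; genome-wide 925 were higher and 661 lower, against 1259 and 339. FPM, which neither divides by length nor counts the chromosome 17 locus in the total, was an alternative chosen after seeing the data. By FPM, B6 became -1.11, B8 -0.49, C1 0.88 and C2 -0.25. A2 and B10 were called higher and B6 lower, and genome-wide 388 were higher and 756 lower. With levels weighted by bases these were 396 and 713. The median log2 ratio of all regions was 0.49 as reported, -0.19 weighted by bases, 1.02 with loci summed and -0.16 by FPM. Where only loci with at least 50% of their width in the region counted, C1 and C2 had no value, 0 of 5 histone regions were called lower, and 655 regions lacked a knockout locus. Pairing at 80% reciprocal overlap left 1 histone pair, 0 called higher and 0 called lower, and 224 pairs in all, 77 higher and 36 lower. Regions in at least 2 wild-type tables, also chosen after seeing the data, gave 430 of 6919 without a knockout locus. Leaving out 1 wild-type table gave 1 to 2 histone regions called lower, with C1 at -1.08 without replicate 1 and -1.10 without replicate 4.

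In the knockout table, loci of at least 5 FPKM numbered 23, 14 and 3 in clusters A, B and C, covering 9661, 8306 and 4194 bases, with 1317 and 209 FPKM summed in B and C. Loci of at least 300 bases numbered 27 in A, summing to 310 FPKM, and summed to 1297 in B. Of 82 region ratios under alternatives, the 5 given here with a changed sign reversed. No paired analysis was possible because the knockout tables are identical and make 1 sample. Depth limits the 66 knockout loci outside the wild-type regions, with a median of 18.0 implied fragments, and the DNA reads, of which each region had 8 or fewer.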
